A study of Mus musculus with 48 samples.

Results

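Olfactory bulb astrocytes from Gabbr1 knockout mice were compared with those of control mice at postnatal day 28 (P28). The comparison uses 6 of the 48 mouse bulk RNA-seq libraries of the series, 3 labelled Gabbr1 cKO (conditional knockout) and 3 labelled Gabbr1 control, chosen by their tissue, age and genotype labels. Animals of both groups received tamoxifen, the drug that switches on an inducible Cre recombinase. The labels do not name the Cre driver, the deleted part of Gabbr1, the sex of the animals, or the number of animals behind a library. They do not say that replicates came from separate animals, so the p-values below measure only the spread between these libraries. By its title the study concerns how inhibitory input shapes astrocytes through the GABA-B receptor of glia. The question here is which transcripts of bulb astrocytes differ when Gabbr1 is deleted. The same genotypes and treatment were sampled at P28 in cortex (4 control and 4 cKO libraries) and in hippocampus (2 control and 4 cKO libraries).

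The GABA-B receptor is a G protein-coupled receptor for the inhibitory transmitter GABA. It is made of the subunit encoded by Gabbr1, which binds GABA, and the subunit encoded by Gabbr2, which brings the pair to the cell surface and couples it to Gi/o proteins. In neurons its G proteins lower adenylyl cyclase activity and open inward rectifier potassium channels, and in astrocytes its activation raises intracellular calcium. The olfactory bulb is rich in inhibitory granule and periglomerular neurons, whose GABA bulb astrocytes take up through dedicated transporters.

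The values are normalized read counts, that is, the reads counted in a gene divided by 1 scaling factor per library. The 6 libraries held between 1859933 and 5285132 reads in genes. Control replicate 2 stood apart from the other 5. Reads of Rn45s, the ribosomal RNA precursor, made up 0.476% of its reads, against 28.8% to 35.8% in the others. It had the fewest reads and the most genes with a read, 17330 against 14307 to 15313. Genes that astrocytes are not known for were detected in it: 359 of the 1125 olfactory receptor genes had a read there, against 14 to 21 elsewhere, and 15 of the 20 major urinary protein genes had a read, against 0 in each other library. Its log2 values correlated with those of the other libraries at Pearson's r of 0.692 to 0.721 across genes, whereas the other pairs lay between 0.899 and 0.968. The highest of these joined a control and a cKO library (control replicate 3 and cKO replicate 3), while pairs of the same genotype lay between 0.910 and 0.934. Control replicate 2 was the highest of the 6 libraries in 34.1% of tested genes and the lowest in 34.1%. A further library differed in sex: cKO replicate 1 was alone in expressing Xist, the RNA of the inactive X chromosome (3866, against at most 3.40 elsewhere), and alone in having no Ddx3y reads, a Y-linked gene that lay between 395 and 466 in the other 5. Results are therefore given with and without control replicate 2, and where it matters without cKO replicate 1.

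**Figure D1:**
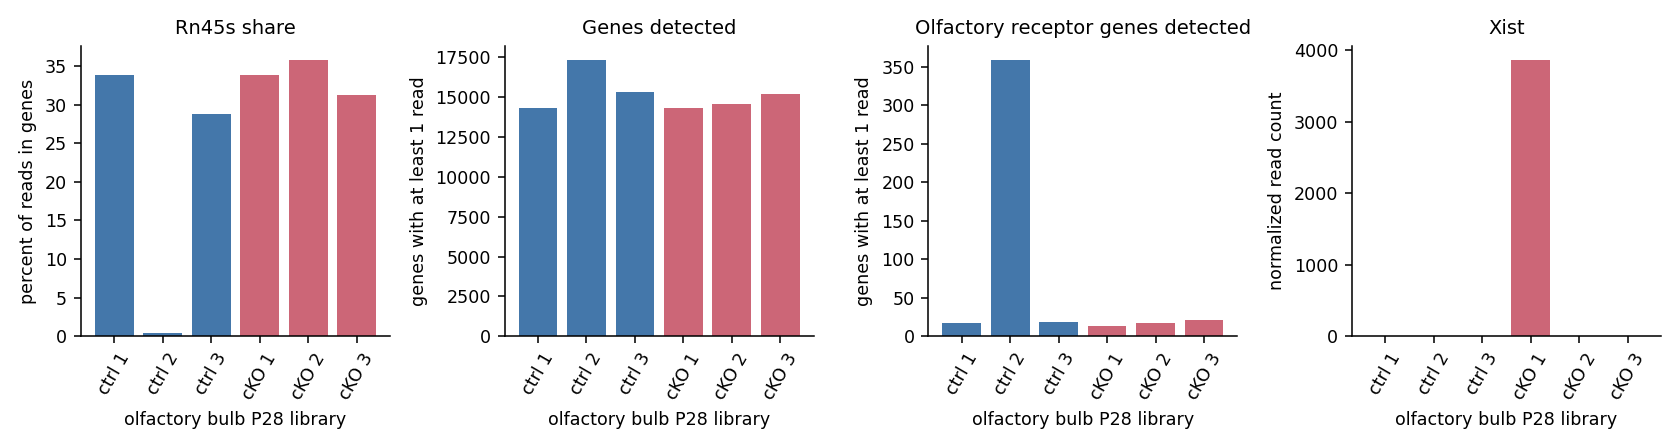
Bars give, for each of the 6 olfactory bulb libraries, the percent of reads in genes that fall in Rn45s, the number of genes with at least 1 read, the number of olfactory receptor genes with at least 1 read, and the normalized read count of Xist. Control replicate 2 has 0.476% Rn45s reads and 359 olfactory receptor genes with a read, and only cKO replicate 1 has Xist above 3.40.

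The libraries carried the expression of astrocytes in both groups. Slc1a2, the main glutamate transporter of astrocytes, lay between 51750 and 89275 in the 6 libraries, and its relative Slc1a3 between 17274 and 25143. The water channel gene Aqp4 lay between 9505 and 13982, and Aldoc, a glycolytic enzyme of astrocytes, between 6627 and 10314. Aldh1l1, a folate enzyme used to mark astrocytes, was lower, at 167 to 432, and Gfap, an intermediate filament gene, lay at 592 to 1418. None of the 8 astrocyte markers examined differed at an unadjusted p under 0.05. Neuronal markers were present at lower levels: the summed normalized count of 12 of them came to 2613, 6148 and 2871 for the controls, in replicate order, and to 2058, 3114 and 2212 for the cKO libraries. Of the 7 blood genes examined, the 4 haemoglobin genes had no read in any library, and the sum of the other 3 was 48.2, 1.70 and 105.03 in control libraries and 0.860, 0.995 and 14.5 in the cKO libraries. S100a9, a neutrophil gene and the 1 of them that passed the filter used below, had 33.3, 0 and 51.1 against 0, 0 and 5.07. Its log2 difference was -2.73 (SE 1.74, limma unadjusted p 0.145), and -4.53 without control replicate 2 (limma unadjusted p 0.00198).

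No gene passed the test across the transcriptome. Limma was fitted to log2(value + 1) for the 11539 genes with a mean of at least 10, with p-values adjusted by the Benjamini-Hochberg method, and 0 genes had an adjusted p under 0.05. The lowest adjusted p was 0.877. At an unadjusted p under 0.05 there were 349 genes, 3.02% of those tested, 181 higher in cKO (1.57%) and 168 lower (1.46%). The cKO and control libraries did not overlap in 1155 genes (10%), 612 higher in cKO (5.30%) and 543 lower (4.71%). Under a random order of the 6 libraries, 3 against 3 do not overlap at a rate of 0.1, close to the share seen. The median difference over all tested genes was 0.02 on the log2 scale, and 51.3% of the differences were positive. Without control replicate 2, limma again called 0 of 11219 genes, with 373 at an unadjusted p under 0.05 (3.32%), 62.7% of them higher in cKO. The groups then did not overlap in 17.6% of genes. That share is not comparable with the 10%, because fewer libraries separate more often under a random order. Of the 349 and 373 genes, 172 were shared, which is 49.3% of the first set and 46.1% of the second. The median within-group SD of the log2 values was 0.53 with the 6 libraries and 0.37 without control replicate 2.

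With the 6 libraries, tests on the recovered reads placed more of the low p-values on the lower side in cKO than limma did. DESeq2 also made a few adjusted calls. The quasi-likelihood test of edgeR called 0 genes and placed 564 at an unadjusted p under 0.05 (4.89%), of which 21.6% were higher in cKO, against 51.9% for limma. DESeq2 had 21.99% of its genes at an unadjusted p under 0.05 higher in cKO, and it called 22 genes at an adjusted p under 0.05 (0.191%), every one lower. In 20 of these 22 only control replicate 2 had reads, at normalized counts of 90.2 to 126, and 9 of the 20 were olfactory receptor, vomeronasal receptor or major urinary protein genes. The other DESeq2 calls were Gabbr1 (DESeq2 adjusted p 0.0257) and Sfi1, which encodes a centrosomal protein (DESeq2 adjusted p 0.0354). Without control replicate 2, edgeR called 0 genes with 381 at an unadjusted p under 0.05 (3.40%), of which 55.6% were higher in cKO. DESeq2 without that library had 57.0% of its genes at an unadjusted p under 0.05 higher in cKO. It called 1 gene (0.00891%), Gabbr1 (DESeq2 adjusted p 0.0132).

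Gabbr1 (chr17:37045966-37074305, GRCm38) had normalized counts of 318, 184 and 189 in the control libraries and 63.6, 99.5 and 78.2 in the cKO libraries. Every cKO library lay below every control library. The control mean was 230 ± 75.97 and the cKO mean 80.5 ± 18.1 (SD, n = 3 each), so that the cKO libraries kept 34.9% of the control level. The log2 difference was -1.48 (SE 0.33), with an unadjusted p of 0.00106 and an adjusted p of 0.877 by limma. This was the lowest p of all tested genes, with the 6 libraries and with control replicate 2 left out. An exact permutation test over the libraries gave a two-sided p of 0.1, the smallest that 3 libraries against 3 allow. Without control replicate 2 the difference was -1.62 (limma unadjusted p 1.21e-04), and without cKO replicate 1 it was -1.33 (limma unadjusted p 0.00671). Whether the gene counts include exons outside the deletion was not tested. In bulk samples such as these, fewer cells of a type and less RNA per cell cannot be told apart.

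Gabbr2 (chr4:46662318-46991714, GRCm38), whose protein pairs with that of Gabbr1, had 526, 526 and 367 in the control libraries and 206, 192 and 311 in the cKO libraries. The groups did not overlap. On average the cKO libraries held 49.98% of the control level, a log2 difference of -1.01 (SE 0.28, limma unadjusted p 0.00414, adjusted p 0.877). The difference was -0.92 without control replicate 2 and -0.93 without cKO replicate 1. Per kilobase of the longest annotated transcript, the control level was 43.9 for Gabbr1 and 82.3 for Gabbr2, and in the cKO libraries the levels were 15.3 and 41.1. The auxiliary KCTD proteins, which bind the receptor and set its kinetics, did not share this difference. Kctd12 had the highest level of the family, 445 per kilobase in control libraries and 467 in the cKO libraries, with a log2 difference of 0.15 (SE 0.39). Kctd12b was at 161.9, 141 and 97.5 in control libraries and at 199, 167 and 164 in the cKO libraries, without overlap (log2 difference 0.43, SE 0.30, limma unadjusted p 0.180). Kctd8 was near the limit of detection, with at most 4.30 in any library, and Kctd16 had no read in any of the 6. Of the 6 genes of this group 4 passed the filter, and Gabbr1 and Gabbr2 had an unadjusted p under 0.05, against 1.46% of all tested genes lower in cKO at that level.

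**Figure D2:**
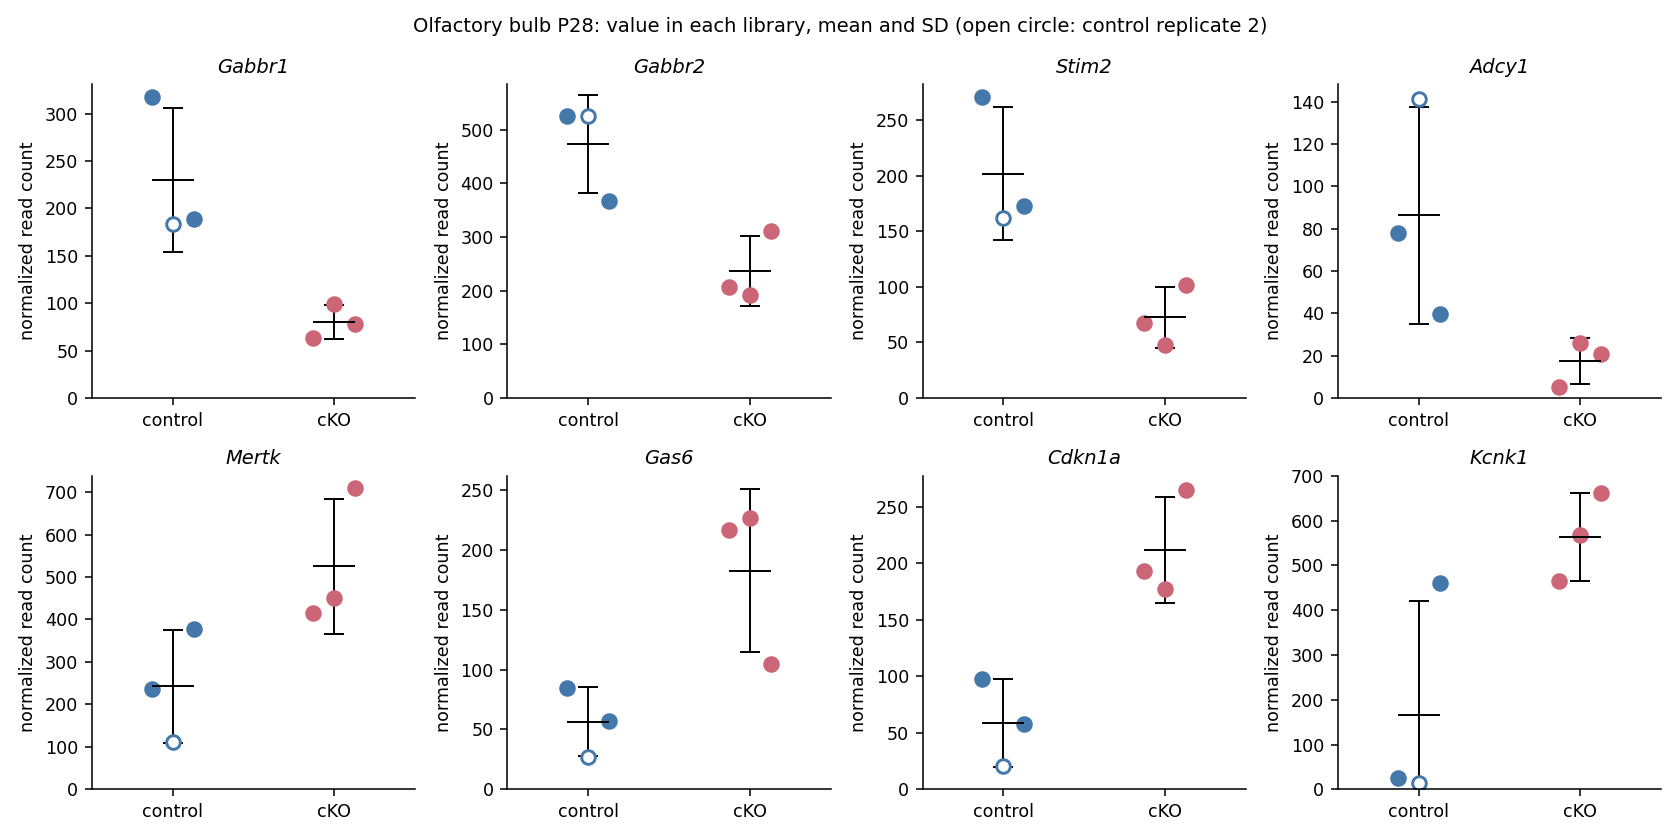
Points show the normalized read count of Gabbr1, Gabbr2, Stim2, Adcy1, Mertk, Gas6, Cdkn1a and Kcnk1 in each olfactory bulb library, with horizontal lines at the group mean and bars of 1 SD, and an open circle for control replicate 2. The groups do not overlap in any of the 8 genes, none of which passed the adjusted limma test with the 6 libraries, and the Kcnk1 values of the control group range from 13.6 to 460.

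Of the genes that carry the signal of Gi/o-coupled receptors, 24 of 27 passed the filter, and 2 had an unadjusted p under 0.05, Adcy1 lower and Rgs5 higher in cKO, against 3.02% of all tested genes. The median difference of the 24 was -0.05, against 0.02 for all tested genes. Adcy1, an adenylyl cyclase stimulated by calcium and calmodulin, had 78.1, 141 and 39.7 in the control libraries and 5.16, 25.9 and 21.0 in the cKO libraries. The groups did not overlap, and the log2 difference was -2.33 (SE 0.68, limma unadjusted p 0.00603). Without control replicate 2, which had its highest value, the difference was -1.88 (limma unadjusted p 0.0116). Adcy2, a cyclase with a higher level, overlapped between groups (485, 776 and 202 against 473, 151.3 and 172). No G protein subunit gene had an unadjusted p under 0.05. Gnai1 was at -0.62 (SE 0.36, limma unadjusted p 0.108), with overlap, and Gng5 at 0.28 (SE 0.24), without overlap. Gnao1 was at -0.10 (SE 0.34), Gnai2 at -0.20 (SE 0.30) and Gnb1 at 0.21 (SE 0.23). Kcnj3, a subunit of the potassium channels that the receptor opens in neurons, overlapped between groups at 53.3 to 357, and its partners Kcnj6 and Kcnj9 were at 15.9 or less in every library.

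Among the genes of calcium release and calcium entry, Stim2 (chr5:53998523-54121057, GRCm38) stood out. It encodes a sensor of calcium in the endoplasmic reticulum that opens store-operated channels of the plasma membrane. Its counts were 271, 161.7 and 173 in the control libraries and 67.9, 47.8 and 102.1 in the cKO libraries. The groups did not overlap, and the cKO libraries averaged 36.0% of the control level. The log2 difference was -1.49 (SE 0.37, limma unadjusted p 0.00208, adjusted p 0.877), and Stim2 had the 3rd lowest p of all genes with and without control replicate 2. Without that library the difference was -1.63, and without cKO replicate 1 it was -1.48. The other 14 genes of this list that passed the filter had an unadjusted p above 0.05. Over all tested genes 1.46% were lower in cKO at an unadjusted p under 0.05. The median of all 15 genes of the list was 0.00. The related sensor gene Stim1 overlapped between groups (79.2, 20.4 and 81.4 against 51.6, 55.7 and 70.3), as did Itpr2, the main calcium release channel gene of astrocytes, at 0.10 (SE 0.24). Of the endothelin receptors and enzymes, Ednrb lay at 4575, 4169 and 4970 in control libraries and at 5692, 5220 and 6232 in the cKO libraries, without overlap but with a log2 difference of only 0.32 (SE 0.20, limma unadjusted p 0.136). Ece2, an endothelin-converting enzyme, had a log2 difference of -1.21 (SE 0.51, limma unadjusted p 0.0372), which was -0.91 with an unadjusted p of 0.0901 without control replicate 2.

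Slc6a11, a GABA transporter that clears the transmitter from the space around astrocytes, was higher in every cKO library than in every control library, by a small amount. Its normalized counts were 14271, 9704 and 13218 in control libraries and 15092, 15276 and 19977 in the cKO libraries. The log2 difference was 0.44 (SE 0.24, limma unadjusted p 0.0985), which did not pass even the unadjusted threshold, and it was 0.28 without control replicate 2, the lowest control (limma unadjusted p 0.172). Of the 12 genes for GABA uptake, synthesis and breakdown 11 were tested, 0 had an unadjusted p under 0.05, and the median was -0.28, or -0.05 without control replicate 2. The breakdown enzyme gene Abat (2891, 1981 and 1286 against 1788, 1540 and 1360) overlapped between groups. None of the 11 tested GABA-A receptor subunit genes had an unadjusted p under 0.05 either. Gabrg1, a subunit characteristic of glia, was at 509, 792 and 654 in control libraries and at 759, 600 and 790 in the cKO libraries, with a log2 difference of 0.15 (SE 0.24).

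Genes that mark mature astrocytes had similar levels in the groups. All 20 of the list were tested, 15 differences were positive, 0 had an unadjusted p under 0.05 and the median was 0.13. Slc1a2 differed by -0.03 (SE 0.32), Slc1a3 by 0.07 (SE 0.24), Aqp4 by 0.14 (SE 0.23) and Kcnj10, the inward rectifier potassium channel gene of astrocytes, by -0.23 (SE 0.32). The connexin gene Gja1 had a log2 difference of 0.54 (SE 0.25, limma unadjusted p 0.0534), and 0.32 without control replicate 2. Of 17 tested genes for astrocyte branching and adhesion, 14 had positive differences, with a median of 0.14. Lrig1, a membrane regulator of growth factor receptors, was the member with an unadjusted p under 0.05 (1.57% of all genes higher). It had 423, 422 and 586 in control libraries and 616, 702 and 735 in the cKO libraries, a log2 difference of 0.53 (SE 0.23, limma unadjusted p 0.0408), with an unadjusted p of 0.0612 without cKO replicate 1. Among 16 transcription factor genes of astrocytes 0 had an unadjusted p under 0.05. Sox9, a determinant of astrocyte fate, did not overlap between groups (1031, 684 and 906 against 1299, 1106 and 1173), with a log2 difference of 0.47 (SE 0.22, limma unadjusted p 0.0621), and 0.30 without control replicate 2 (limma unadjusted p 0.118). The glutamine transporter gene Slc38a3 was higher in the cKO libraries by 0.86 (SE 0.37, limma unadjusted p 0.0416), but control replicate 2 was at 426 while the other controls were at 1248 and 1264. Without it the difference was 0.34 (SE 0.17, limma unadjusted p 0.0640). The 8 tested genes of glutamate uptake and the glutamine cycle had a median of 0.02. Of 18 genes known from reactive astrocytes 10 were tested, with 0 at an unadjusted p under 0.05 and a median of 0.31, or 0.00 without control replicate 2. The median of the transcription factor list also depended on that library, at -0.07 with it and 0.22 without it.

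Mertk and Gas6, a receptor and its ligand in the engulfment of synapses and debris by astrocytes, were both higher in the cKO libraries. Mertk had 237, 112 and 378 in control libraries and 415, 451 and 708 in the cKO libraries, a log2 difference of 1.24 (SE 0.41, limma unadjusted p 0.0121). Gas6 had 85.0, 27.2 and 56.8 in control libraries and 217, 227 and 104 in the cKO libraries, a log2 difference of 1.74 (SE 0.47, limma unadjusted p 0.00379). Neither overlapped between groups, and in both genes control replicate 2 was the lowest library. Without it the differences were 0.77 for Mertk (limma unadjusted p 0.0122) and 1.30 for Gas6 (limma unadjusted p 0.00238). Pros1, a further ligand of Mertk, had 56.3, 66.4 and 66.2 in control libraries and 126, 83.6 and 108 in the cKO libraries, also without overlap (0.73, SE 0.34, limma unadjusted p 0.0539). Megf10, another engulfment receptor gene, overlapped between groups (738, 540 and 1281 against 1043, 1321 and 1326). In the list of 14 tested genes for factors that act on synapses, Mertk and Gas6 were the 2 with an unadjusted p under 0.05, both higher (1.57% of all genes were higher at that level), and the median was 0.02. With control replicate 2 left out, Pros1 also had one (limma unadjusted p 0.0301), and the median was 0.18. The abundant matricellular genes Sparcl1 and Sparc had differences of -0.13 (SE 0.26) and -0.38 (SE 0.30).

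The largest differences were picked among 178 genes (97 higher and 81 lower in cKO) that had an unadjusted p under 0.05, a mean of at least 50 and no overlap between groups. The 12 largest positive differences were those of Kcnk1, Preb, Cdkn1a, Rgs5, Pomt1, Gas6, Ccdc115, Cyr61, Fam20a, Rqcd1, Lmcd1 and Ncln, with log2 differences from 3.32 down to 1.36. Cdkn1a encodes an inhibitor of cyclin-dependent kinases. It had 97.6, 20.4 and 57.7 in control libraries and 193, 177 and 265 in the cKO libraries, a log2 difference of 2.07 (SE 0.51, limma unadjusted p 0.00189). It ranked second of all genes by p with the 6 libraries, and without control replicate 2 its difference was 1.46 (limma unadjusted p 2.45e-04). Preb, whose protein acts in export from the endoplasmic reticulum, rested on 1 library: its counts were 40.2, 32.3 and 75.7 in control libraries and 734, 83.6 and 144.2 in the cKO libraries. Without cKO replicate 1 its difference dropped from 2.14 to 1.23. Cyr61, a secreted matrix protein gene, had 90.7, 32.3 and 97.5 in control libraries and 333, 178 and 141 in the cKO libraries.

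The 12 largest negative differences were those of Adcy1, Mki67, Sfi1, Hscb, Rbl1, Slc31a2, Cacna1c, Prr36, Igbp1, Cfap44, Ptpre and Scg5, with log2 differences from -2.33 to -1.59. In Sfi1 the control values were 85.0, 500 and 48.3, and the cKO values 30.9, 28.9 and 25.4. Its difference was -2.13 with the 6 libraries and -1.15 without control replicate 2. Igbp1, which encodes a regulator of protein phosphatases, had control values of 91.9, 715 and 57.7 and cKO values of 30.1, 42.8 and 55.1. Its difference was -1.89 and, without control replicate 2, -0.80 (limma unadjusted p 0.0664). Cacna1c, an L-type calcium channel gene, had 52.8, 315 and 50.1 in control libraries and 20.6, 41.8 and 16.7 in the cKO libraries. Cfap44, a gene of motile cilia, had 80.4, 218 and 78.5 in control libraries and 28.4, 49.8 and 26.1 in the cKO libraries, and kept a difference of -1.23 without control replicate 2 (limma unadjusted p 0.00909).

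In all 24 of these genes control replicate 2 was the control library farthest from the cKO libraries. Over all tested genes it was the highest of the 6 libraries in 34.1% and the lowest in 34.1%. The 24 genes were picked with it included, which favours genes where it lies far out. Leaving out the farthest control must bring a difference nearer to 0, and the remaining libraries also took part in picking the genes. Without control replicate 2, 10 of the 12 higher genes had an unadjusted p under 0.05, the exceptions being Rqcd1 and Ncln. Of the 12 lower genes 6 had one, the exceptions being Mki67, Rbl1, Slc31a2, Cacna1c, Igbp1 and Scg5. In 6 of the higher and 6 of the lower genes the difference shrank by more than 1.5 times. The same rule applied to the other 5 libraries gave 195 genes (128 higher and 67 lower). Its 6 largest higher genes were Kcnk1, Preb, Cdkn1a, Angptl4, Herpud1 and Lig3, and its 6 largest lower ones Stim2, Gabbr1, Unc13c, Cfap44, Mbp and Plgrkt. Mbp, the myelin basic protein gene, had 768, 376 and 1733 in control libraries and 468, 659 and 498 in the cKO libraries. Its difference was -0.57 with the 6 libraries and -1.11 without control replicate 2, which was the lowest control. When control replicate 3, the highest control, was left out instead, it was -0.00466 (limma unadjusted p 0.989). Unc13c, a gene of synaptic vesicle priming, had 127, 61.3 and 51.1 in control libraries and 33.5, 22.9 and 38.4 in the cKO libraries, a difference of -1.23 and, without control replicate 2, -1.36 (limma unadjusted p 0.00968).

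**Figure D3:**
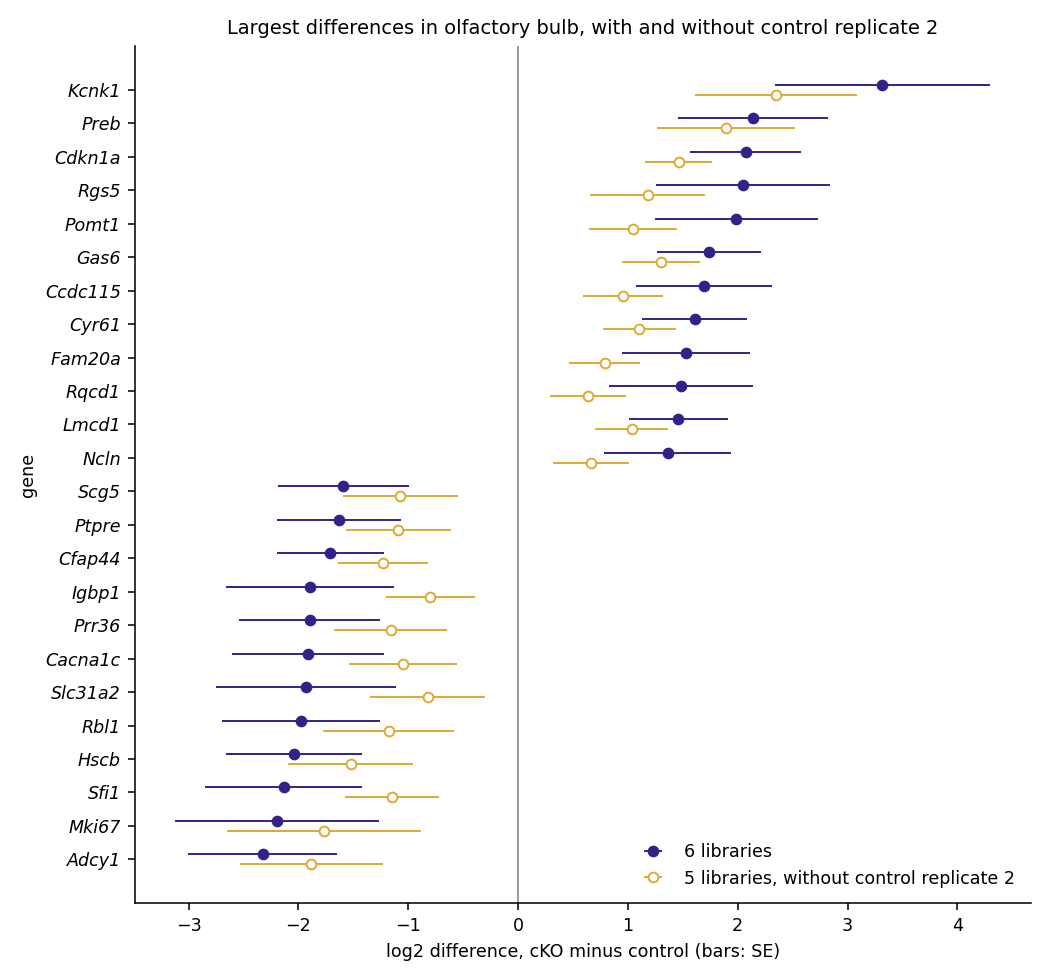
Points show the log2 difference (cKO minus control) of the 24 genes with the largest differences, with bars of 1 SE, for the 6 libraries (filled) and for the 5 without control replicate 2 (open). All 24 open points lie nearer to 0 than the filled ones, as they must where control replicate 2 is the farthest control.

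Kcnk1 (chr8:125993655-126030685, GRCm38), a potassium leak channel gene, had the largest difference and widely spaced control values. Its counts were 25.3, 13.6 and 460 in control libraries and 464, 568 and 661 in the cKO libraries. The highest control lay just below the lowest cKO library. The log2 difference was 3.32 (SE 0.98, limma unadjusted p 0.00649). It was 2.35 without control replicate 2, and without control replicate 3 it was 4.84 and passed the adjusted test (limma adjusted p 0.00219). On the recovered reads of the 6 libraries it was 1.73 with edgeR (edgeR unadjusted p 0.110) and 1.76 with DESeq2 (DESeq2 unadjusted p 0.193). The low and high controls differed in the serial numbers that the labels give to libraries: control replicate 3 carries a later number than the other controls. In cortex the controls with earlier numbers had Kcnk1 at 84.5 and 110 and those with later numbers 974 and 1044. The cortical cKO libraries with earlier numbers were at 361, 945 and 1191, and the later one at 980. In hippocampus the 2 controls, both with early numbers, were at 262 and 130, the cKO libraries with early numbers at 443, 878 and 786, and the later one at 756. In the bulb the cKO libraries at 464 and 568 had early numbers, and the one at 661 a late number. In bulb and cortex the controls with early numbers lay below those with late numbers, while in each of the 3 regions the cKO libraries with early numbers lay above the controls with early numbers. The labels do not say what the numbers stand for. A limma fit with early or late number as a covariate left the bulb count of adjusted calls at 0, the same as without it. That count does not bear on Kcnk1 alone, and the part of the numbers in the Kcnk1 values was not tested.

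Genes with low p outside the lists were Lgals3bp, Hhatl, Eda2r and Dusp6, picked after their values were seen. Their p was among the 8 lowest with the 6 libraries. That also held without control replicate 2 for Lgals3bp, Hhatl and Eda2r, but not for Dusp6. Lgals3bp, a secreted glycoprotein gene, had 181, 111 and 232 in control libraries and 557, 428 and 317 in the cKO libraries, a log2 difference of 1.33 (SE 0.33, limma unadjusted p 0.00217), and 1.04 without control replicate 2. Dusp6, a phosphatase that dampens ERK signalling, had 170, 74.9 and 122 in control libraries and 314, 321 and 236 in the cKO libraries, a log2 difference of 1.30 (SE 0.34, limma unadjusted p 0.00278), and 0.99 without control replicate 2. Hhatl had 17.2, 6.81 and 22.7 in control libraries and 78.2, 53.8 and 71.7 in the cKO libraries. Eda2r, a receptor gene of the tumour necrosis factor family, had 4.59, 1.70 and 1.89 in the controls, a few reads in each, and 42.1, 23.9 and 31.2 in the cKO libraries. None of the 4 overlapped between groups, and none passed the adjusted test.

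Markers of endothelial cells had the highest median difference among the lists of cell type markers with 3 or more tested members, which leaves out the blood list with 1 and the ependymal and choroid list with 2. Of 12 endothelial genes 9 were tested, 8 differences were positive, 3 had an unadjusted p under 0.05 (all higher in cKO, against 1.57% of all genes) and the median was 1.30, or 1.09 without control replicate 2. Their summed count was 101, 194 and 349 in control libraries and 449, 436 and 247 in the cKO libraries, so the sums overlapped. Slco1a4, a transporter of the blood-brain barrier, had 12.6, 8.51 and 72.9 in control libraries and 74.8, 114 and 50.7 in the cKO libraries. Flt1, a receptor for vascular growth factors, had 12.6, 15.3 and 36.9 against 76.5, 48.8 and 31.2, and Ly6c1, a surface protein of brain endothelium, had 4.59, 5.11 and 5.68 against 27.5, 20.9 and 13.0. Without cKO replicate 1 the limma unadjusted p was 0.194 for Flt1 and 0.0641 for Slco1a4, and Ly6c1 did not pass the filter. The pericyte genes Pdgfrb (91.9, 78.3 and 168 against 157.3, 275 and 197) and Rgs5 (33.3, 5.11 and 39.7 against 217, 49.8 and 53.6) were also higher at an unadjusted p under 0.05. Over all genes 1.57% were higher at that level, and the median of the 9 tested mural genes was 0.10. The Rgs5 value of control replicate 2 is 3 reads, and without cKO replicate 1 the difference of 2.05 was 1.37 with an unadjusted p of 0.145, and it was 1.18 without control replicate 2. The part of vascular cells in the differences of other genes was not tested.

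Neuronal markers had a median of -0.45 over 10 tested genes and markers of bulb granule and periglomerular neurons a median of -0.28 over 13, with 0 genes at an unadjusted p under 0.05 in either list. These medians moved with control replicate 2, whose summed neuronal count was 6148, and without it they were -0.18 and 0.08. Snap25, a synaptic protein gene, had 344, 1440 and 613 in control libraries and 236, 683 and 633 in the cKO libraries. Dcx, a gene of migrating neuroblasts, had 437, 1746 and 169 against 266, 537 and 112. The groups overlapped in both genes. Among markers of ensheathing glia, the glia of olfactory axons, 10 were tested. Ngfr was the 1 with an unadjusted p under 0.05, against 1.57% of all tested genes higher at that level. Its counts were 20.7, 20.4 and 37.8 in control libraries and 73.1, 40.8 and 53.6 in the cKO libraries (limma unadjusted p 0.0465). Its unadjusted p was 0.0526 without control replicate 2 and 0.170 without cKO replicate 1. The median of this list was 0.26. Microglial markers had a median of -0.20 over 6 tested genes, markers of mitral and tufted neurons -0.18 over 6, olfactory sensory neuron markers -0.18 over 3, mature oligodendrocyte markers -0.03 over 11 and oligodendrocyte precursor markers -0.27 over 8. None of these 5 lists had a gene at an unadjusted p under 0.05. The oligodendrocyte median was 1.11 without control replicate 3, the library with the most reads of these markers. The precursor median was -0.02 without control replicate 2 and -0.53 without cKO replicate 1, and without control replicate 2 the mitral and tufted median was -0.42 and the sensory neuron median -0.40.

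**Figure D4:**
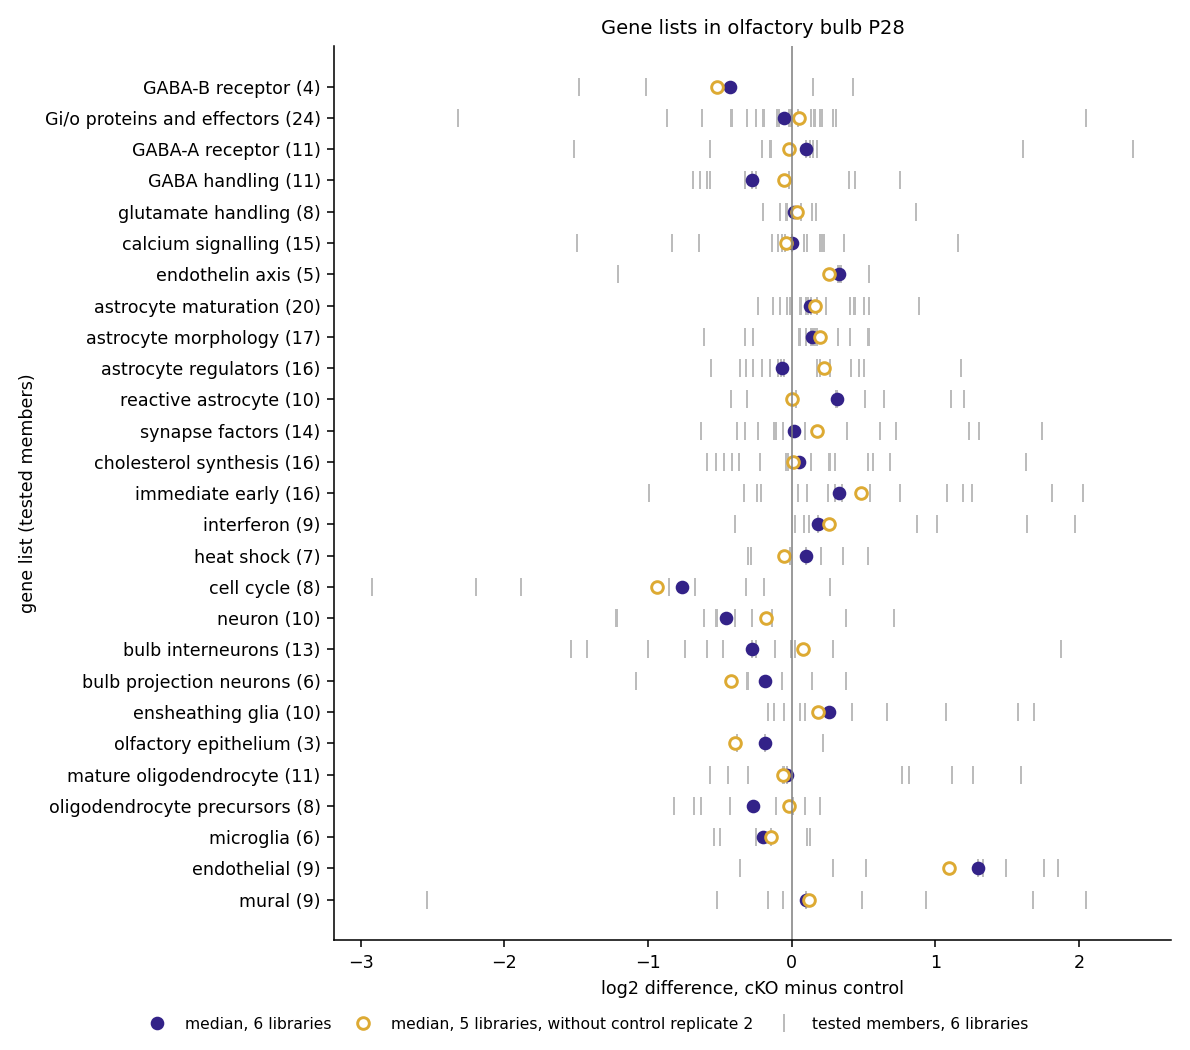
Each line is a gene list with the number of tested members in brackets, ticks show the log2 difference (cKO minus control) of each member, and circles the median with the 6 libraries (filled) and without control replicate 2 (open). The endothelial list has the highest median, 1.30 and 1.09, and the bulb interneuron median changes sign, from -0.28 to 0.08.

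Set beside the other regions, the cKO libraries had lower Gabbr1 in each, and the tables were scaled separately, so levels are not compared across them. In cortex Gabbr1 was at 1746, 1930, 1159 and 927 in control libraries and at 89.8, 96.5, 134 and 211 in the cKO libraries, 9.23% of the control mean and the 1 gene with an adjusted p under 0.05 there of 10188 tested (0.00982%; log2 difference -3.45, limma adjusted p 4.40e-05). In hippocampus it was at 780 and 824 in control libraries and at 167, 380, 151.7 and 256 in the cKO libraries, 29.8% of the control mean, and 0 of 11639 genes passed the adjusted limma threshold. The bulb value of 34.9% stood nearer to hippocampus than to cortex, a difference that was not tested. Gabbr2 had a log2 difference of -0.04 (SE 0.21) in cortex and -0.03 (SE 0.42) in hippocampus, against -1.01 in the bulb, and these were not tested against each other.

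Stim2 was lower in hippocampus too, with 306 and 335 in control libraries and 168, 47.7, 182 and 215 in the cKO libraries (log2 difference -1.26, SE 0.56, limma unadjusted p 0.0494), and overlapped in cortex (0.09, SE 0.37). Mertk was higher in hippocampus without overlap, with 370 and 723 in control libraries and 993, 1121, 1106 and 1426 in the cKO libraries (1.15, SE 0.32), and overlapped in cortex (0.16, SE 0.20). Of the 24 genes with the largest differences in the bulb, 24 were tested in hippocampus and 12 had the same sign there, against 47.5% of all genes tested in both. In cortex 20 were tested and 8 had the same sign, against 51.8% of all genes. Groups that did not overlap, in the direction of the bulb, were found in hippocampus for Kcnk1, Rgs5 and Prr36 (3 of 24), and in cortex for none of the 20. Of all genes tested in both regions whose bulb groups did not overlap, 7.81% did the same in hippocampus (86 of 1101) and 1.69% in cortex (17 of 1003). In either direction, groups did not overlap in 15.0% of all genes tested in hippocampus and in 1.89% of those tested in cortex. In hippocampus 2.54% had an unadjusted p under 0.05. Under a random order such shares depend on the libraries per group, 2 and 4 in hippocampus and 4 and 4 in cortex. These shares, and those of agreement with the bulb, are therefore not comparable between the regions. Hippocampus cKO replicate 2 also had few Rn45s reads, 0.594%, and without it the hippocampal differences were -2.10 for Gabbr1, -0.77 for Stim2 and 1.17 for Mertk. The labels do not say whether the regions came from the same animals.

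**Figure D5:**
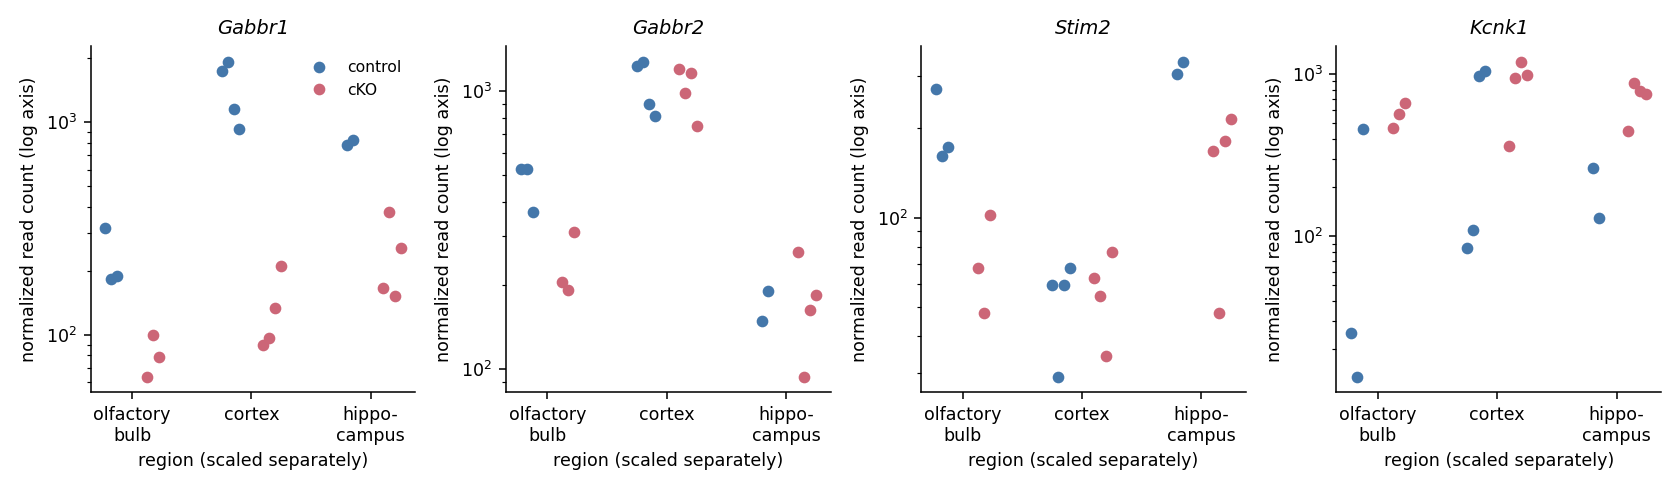
Points show the normalized read count (log axis) of Gabbr1, Gabbr2, Stim2 and Kcnk1 in each P28 library of the olfactory bulb, cortex and hippocampus, with controls in blue and cKO in red. Gabbr1 is lower in cKO without overlap in the 3 regions, Gabbr2 in the olfactory bulb, and Stim2 in the olfactory bulb and hippocampus.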

How the data were processed

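Per the labels' protocols, dissociated tissue gave total RNA for low-input libraries (Trio RNA-seq). Per the submitters' processing notes, FastQC, MultiQC, STAR 2.5.0a, DESeq2 1.20.0 and mm10 were used; counting, strand and annotation are not given in the sources used here. The values the authors deposited are a normalized signal per gene: each is a whole number of reads (within 0.01 reads) divided by 1 factor per library, in 100% of values. In cKO replicate 2 a read is worth 0.995, so near 1 that wholeness is a weak check there (9.98% of values would be whole at a step of 1), yet its reads entered the count tests. Of 24421 genes, 27 symbols turned into dates were restored from the cortex table's row order. Positions are from RefSeq (GRCm38.p6).

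Groups follow the labels, and replicate numbers follow accession order. Limma 3.58.1 (R 4.3.3, mean-variance trend) was fitted to log2(value + 1) of genes with a mean of at least 10, so that log2 differences of genes with low counts come out too small. P-values were adjusted by Benjamini-Hochberg over all tested genes. Recovered reads were tested with edgeR 4.0.16 and DESeq2 1.42.0. Alternatives were other pseudocounts (0.1 and 8), filters (none, or a mean of 100), scalings (TMM, quantile), limma settings, covariates and leaving out libraries. The fits were tested on simulated data with the same spread for all genes and no library that stood apart. That test therefore does not show how many differences these libraries could reveal.

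The comparison and the 30 gene lists (366 genes) were chosen with earlier results of these data known. Named genes were Gabbr1, Gabbr2, the 12 largest differences in each direction (unadjusted p under 0.05, mean of at least 50, no overlap; predicted genes, pseudogenes and small RNAs left out), and list members with an unadjusted p under 0.05 or, where a list had none, up to 2 without overlap. Other list members are given by value as chosen after seeing them. Values of some genes are not reported here.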

Additional observations from a re-analysis of the deposited data

Results flagged for a closer look

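Of the genes with the largest differences in the olfactory bulb, 3 were higher in every cKO library than in every control library there and lower in every cKO library than in every control library in hippocampus. Of all genes that were higher without overlap in the bulb and tested in both regions, 8.08% were lower without overlap in hippocampus (48 of 594). The difference between the regions was not tested. Cdkn1a had a log2 difference of 2.07 in the bulb and -1.15 in hippocampus, where the controls were at 102.5 and 122 and the cKO libraries at 43.6, 21.7, 91.8 and 70.8. Gas6 had 1.74 in the bulb and -1.21 in hippocampus, with 1165 and 741 in the hippocampal controls and 585, 88.1, 683 and 725 in the cKO libraries. Lmcd1 had 1.46 in the bulb and -0.50 in hippocampus, with 71.2 and 84.5 in control libraries and 60.04, 40.4, 66.3 and 55.4 in the cKO libraries. The limma unadjusted p-values in hippocampus were 0.0795, 0.143 and 0.270. In each of the 3 genes the lowest hippocampal library was cKO replicate 2, the one with 0.594% Rn45s reads, and without it the hippocampal differences were -0.76, -0.49 and -0.36. In cortex the 3 genes overlapped between groups.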

How the results depend on the processing

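The count of 0 genes past the limma adjusted threshold was 0 under other pseudocounts, filters, scalings, limma settings, covariates and edgeR; DESeq2 gave 22, and 1 without control replicate 2. Leaving out each library gave 0 to 1, the 1 being Kcnk1 without control replicate 3. The genes at an unadjusted p under 0.05 (349, 3.02% of those tested) were 546 (2.74%) without a filter and 140 (2.99%) at a minimum mean of 100, where more and fewer genes were tested. They were 564 (4.89%) with edgeR, 623 (5.40%) with DESeq2 (21.99% of them higher in cKO) and 1.40% with an Xist covariate, which in effect fits cKO replicate 1 alone. Leaving out 1 library gave 0.986% (cKO replicate 1), 1.42% (cKO replicate 2), 1.73% (cKO replicate 3), 5.55% (control replicate 1) and 9.68% (control replicate 3). The cause was not tested. With control replicate 2 and cKO replicate 1 both left out, chosen after seeing the data, limma called 0 genes, with 287 at an unadjusted p under 0.05. Gabbr1 was lower in cKO under every alternative, and crossed the adjusted threshold at -1.53 with DESeq2 and at -1.66 with DESeq2 without control replicate 2. Leaving out each library moved it from -1.65 to -1.23. None of the 54 other named genes changed sign under any alternative. Most of them had groups that did not overlap, so leaving out a library or changing the pseudocount could not change their sign. Kcnk1 (without control replicate 3) and Sfi1 (DESeq2, -2.90) crossed the adjusted threshold. Of 626 list medians under alternatives 29 moved by more than the library spread. No paired analysis was possible because the labels carry no replicate numbers, and those used here only name libraries in accession order. Depth limits genes near 3 reads, which is 5.11 normalized counts in control replicate 2 and 2.17 in cKO replicate 3.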

Other observations

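Further gene groups outside receptor signalling and astrocyte identity were examined, and some of their members are described above. Of 16 immediate early genes, which respond to activity and to tissue dissociation, 12 had positive differences and 2, Junb and Zfp36, had an unadjusted p under 0.05, against 1.57% of all genes higher at that level, with a median of 0.33. Zfp36, an RNA-binding regulator of inflammatory transcripts, had 134, 49.4 and 78.5 in control libraries and 363, 184 and 108 in the cKO libraries. Junb had 56.3, 5.11 and 32.2 against 140, 116 and 46.4. The groups overlapped in both genes, and without cKO replicate 1 the limma unadjusted p was 0.142 for Zfp36 and 0.0956 for Junb. The Junb difference of 2.03 was 1.08 without control replicate 2. The summed count of the list was 5157, 5757 and 2859 in control libraries and 9215, 5866 and 2684 in the cKO libraries, so cKO replicate 1 held the highest sum and the replicates numbered 3 the lowest of each group. The interferon-response list had a median of 0.18 over 9 tested genes. Its member Oasl2 had 10.3, 37.4 and 18.0 in control libraries and 79.1, 54.7 and 55.1 in the cKO libraries, a log2 difference of 1.64 (SE 0.54, limma unadjusted p 0.0123) and 2.10 without control replicate 2. Without cKO replicate 1 its unadjusted p was 0.0569. In hippocampus Oasl2 had no read in either control and was at 16.5, 72.2, 9.58 and 20.02 in the cKO libraries. The highest of these is cKO replicate 2, the library with 0.594% Rn45s reads. In cortex its mean was lower in cKO, with 16.9, 0, 18.6 and 7.61 in control libraries and 0, 1.05, 0 and 12.5 in the cKO libraries. The interferon gene Ifit3 differed by 0.18 (SE 0.32) in the bulb.

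Of 8 tested cell cycle genes 7 had negative differences, with a median of -0.76. Over all tested genes 51.3% of the differences were positive. Without control replicate 2, 6 genes of the list were tested and 2 of them had positive differences. Then 0 had a limma unadjusted p under 0.05, and the median was -0.93. Summed over the list, the counts were 352, 558 and 221 in control libraries and 385, 153.3 and 251 in the cKO libraries. These sums overlapped between groups. Mki67, a marker of dividing cells, had 62.0, 138 and 50.1 in control libraries and 49.9, 1.99 and 29.7 in the cKO libraries, and the lowest of these is 2 reads. Top2a, an enzyme of chromosome segregation, overlapped between groups (54.0, 51.1 and 26.5 against 79.9, 5.97 and 33.3). Cholesterol synthesis genes had a median of 0.05 over 16, with 0 at an unadjusted p under 0.05, and heat shock genes 0.10 over 7. Groups did not overlap for Srebf2, the transcription factor of the pathway (232, 100 and 221 against 249, 234 and 287; log2 difference 0.56, and 0.17 without control replicate 2), and for the enzyme gene Fdps (74.6, 57.9 and 54.9 against 45.6, 37.8 and 50.7). The lipid exporter gene Abca1 had 1005, 703 and 1890 in control libraries and 1803, 1676 and 1825 in the cKO libraries (0.68, SE 0.32, limma unadjusted p 0.0565), a difference of 0.36 without control replicate 2. Mature oligodendrocyte markers summed to 2857, 4009 and 11320 in control libraries and to 3750, 5287 and 5591 in the cKO libraries, and control replicate 3 held the highest sum. No explanation of these differences was tested.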
